A study of Saccharomyces cerevisiae with 18 samples.

Results

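The small subunit of the cytosolic ribosome of budding yeast is built from one ribosomal RNA and a set of proteins encoded by the RPS genes and ASC1. Of the 7118 genes and other features in the count table, 57 have a symbol made of RPS, a number and an optional A or B, or are ASC1. They comprise 24 pairs of duplicated genes, named A and B, and 9 genes with a single copy (among them RPS2, RPS3, RPS12, RPS13, RPS15, RPS20, RPS31 and ASC1). All 57 passed the filter on low counts that left 6833 features for testing, and the lowest count of any of them in any library was 827.

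RNA was sequenced from 6 groups of 3 libraries. The aged groups were wild type (strain CGY4.51, genotype MAT@), an msn2 deletion (CGY61.46, msn2::HphNT1) and an msn2 msn4 double deletion (CGY69.30, msn2::HphNT1 msn4::NatNT2), each harvested after 24 h in a Ministat Aging Device, which holds biotin-labelled mother cells on magnetic beads while medium flows past. The young groups were exponentially growing cells of the same 3 strains. Msn2 and Msn4 are related transcription factors that activate stress genes. All groups grew in biotin-free synthetic medium (SC YNB) containing 2% glucose and 2% MMP with DAPA at pH 4.5. Each genotype is represented by one strain, and nothing in the labels says that replicates came from separate cultures, so the p-values speak only of the variation among these libraries. Aged mothers on beads and whole young cultures differ in more than age, and a lower level in such bulk RNA may mean less RNA per cell or fewer cells holding it, which cannot be told apart.

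Ribosomal protein genes are among the most strongly transcribed genes of growing yeast. The factors Rap1, Fhl1, Ifh1 and Sfp1 act at their promoters, TORC1 and protein kinase A couple their output to nutrients and growth, and their transcripts fall in the common response to stress. The A and B copies came from a duplication of the whole genome and encode the same or nearly the same protein from different promoters, often with different introns. The small subunit reads the start codon and holds the decoding site, with proteins grouped around the mRNA channel, the head, the platform and the surface that faces the large subunit.

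Library totals were 4078400 to 7136185 counts in the aged double deletion and 25768602 to 41649952 in the other 15 libraries. MSN2 averaged 4.11 ± 0.443 and 4.29 ± 0.617 CPM (counts scaled to a common library size, mean ± SD, n = 3) in aged msn2 and double deletion cells, against 33.4 ± 1.83 in aged wild type, and the young values were 4.29 ± 0.127 and 3.57 ± 0.942 against 41.8 ± 2.89. MSN4 averaged 13.4 ± 1.29 CPM in aged and 21.4 ± 3.01 in young double deletion cells, 84.1 ± 2.44 and 50.6 ± 5.79 in aged and young msn2 deletion cells, and 51.5 ± 2.38 and 42.6 ± 2.76 in aged and young wild type, so it was lower but well above 0 in the double deletion. The genes of alpha mating type summed to 3613 to 6115 CPM in every library, whereas 6 genes of a cells summed to 31.7 to 55.4 CPM, none of them at 0. All levels use TMM factors, and levels compared between genes are divided by the length of the coding sequence (CPM per kb).

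The paralogs are close in sequence, which bears on how reads can be assigned to them. Identity of the coding sequences within a pair ran from 84.3% (RPS27) to 99.2% (RPS6), with a median of 92.7%, and 9 of the 24 pairs reached at least 95%. In 4 pairs, among them RPS4, RPS6 and RPS24, an identical stretch was at least as long as a read of 150 bases, so their copies are the least certain to be separated. The coding sequences of 3 pairs are printed below because their A share changed with age, RPS29 and RPS28 toward B in every strain and RPS30 toward A, least firmly in the msn2 deletion. They are from RefSeq, build R64, and capitals mark the bases that differ between the copies: 14 of 171 in RPS29, 24 of 204 in RPS28 and 9 of 192 in RPS30.
RPS29A: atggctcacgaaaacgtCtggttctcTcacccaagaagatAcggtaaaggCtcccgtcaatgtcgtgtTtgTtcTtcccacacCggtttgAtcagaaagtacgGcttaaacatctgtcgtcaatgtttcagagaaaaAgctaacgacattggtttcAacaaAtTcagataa
RPS29B: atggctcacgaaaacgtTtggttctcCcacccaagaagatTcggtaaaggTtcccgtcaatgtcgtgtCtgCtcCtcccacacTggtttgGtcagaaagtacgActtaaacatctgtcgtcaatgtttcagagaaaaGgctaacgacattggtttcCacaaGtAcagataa
RPS28A: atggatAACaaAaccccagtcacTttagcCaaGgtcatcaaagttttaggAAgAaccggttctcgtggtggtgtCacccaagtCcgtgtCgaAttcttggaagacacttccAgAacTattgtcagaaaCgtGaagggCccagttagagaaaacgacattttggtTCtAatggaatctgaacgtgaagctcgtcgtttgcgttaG
RPS28B: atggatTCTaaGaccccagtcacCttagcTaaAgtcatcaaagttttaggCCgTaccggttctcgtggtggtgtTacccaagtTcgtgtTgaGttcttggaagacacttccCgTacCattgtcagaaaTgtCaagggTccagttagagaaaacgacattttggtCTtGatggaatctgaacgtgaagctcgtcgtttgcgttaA
RPS30A: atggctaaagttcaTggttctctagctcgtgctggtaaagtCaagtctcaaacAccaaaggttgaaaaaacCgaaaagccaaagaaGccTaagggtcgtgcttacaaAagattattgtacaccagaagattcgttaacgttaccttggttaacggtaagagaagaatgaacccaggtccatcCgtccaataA
RPS30B: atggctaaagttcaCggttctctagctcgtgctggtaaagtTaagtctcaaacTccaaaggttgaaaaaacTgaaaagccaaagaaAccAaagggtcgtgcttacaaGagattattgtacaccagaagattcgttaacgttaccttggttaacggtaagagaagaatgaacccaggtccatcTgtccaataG
RPS29A lies at chrXII:898651-898821 (+ strand) and RPS29B at chrIV:340628-340798 (- strand), and they encode uS14 of the subunit head. RPS28A lies at chrXV:648804-649007 (- strand) and RPS28B at chrXII:673131-673334 (+ strand), and they encode eS28 near the exit of the mRNA channel. RPS30A lies at chrXII:712537-713158 (- strand) and RPS30B at chrXV:678191-678793 (- strand), and they encode eS30. The coding parts of RPS29 and RPS28 have no intron, while those of RPS30A and RPS30B are each interrupted by one, of 430 and 411 bases, which is left out of the printed sequence. The longest identical stretch was 33 bases in RPS29, 35 in RPS28 and 74 in RPS30.

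Promoters were searched for the words of known factors in the 500 bases upstream of each start codon, on both strands. The full Rap1 word, the run in capitals in the windows printed here, occurred upstream of 4 of the 57 genes (7.02%), 3 of 81 large subunit genes (3.7%) and 18 of all 6002 protein-coding genes (0.3%). Windows of RPS10A, RPS16B and RPS23B are printed with 15 bases on each side, on the strand of the gene, with the word in capitals (in RPS10A it reads on the other strand).
RPS10A: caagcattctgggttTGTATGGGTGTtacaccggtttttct
RPS16B: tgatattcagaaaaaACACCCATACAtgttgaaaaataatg
RPS23B: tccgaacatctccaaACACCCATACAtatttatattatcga
They lie at chrXV:866743-866783 (+ strand), chrIV:308128-308168 (- strand) and chrXVI:794640-794680 (+ strand), and the words begin 340, 364 and 310 bases before the start codon. The shorter Rap1 words ACCCANACA and CCCNTACA, which overlap the full word, occurred upstream of 16 (28.1%) and 15 (26.3%) of the 57 genes, against 3.1% and 4.05% of all protein-coding genes. Large subunit genes held these shorter words more often, at 35.8% and 32.1%. The Abf1 word was upstream of 12 genes (21.1%, against 22.7% of all), and both RPS28 copies hold one, printed likewise. In a shorter window, 250 bases upstream to 50 downstream of the start codon, the full Rap1 word occurred in 0 of the 57 genes and the shorter words in 5.26% and 3.51%, against 1.47% and 1.82% of all. The Abf1 word was then in 17.5%, against 14.4% of all.
RPS28A: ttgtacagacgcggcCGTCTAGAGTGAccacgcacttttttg
RPS28B: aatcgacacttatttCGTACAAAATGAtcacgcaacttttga
These lie at chrXV:649145-649186 (- strand) and chrXII:672935-672976 (+ strand), and the words begin 164 and 181 bases before the start codon. AGGGG, the stress element bound by Msn2 and Msn4, was upstream of 13 of the 57 genes (22.8%) and of 34.1% of all protein-coding genes, and in the shorter window of 19.3% and 21.6%. The ribosome biogenesis words AAAAATTTT and GCGATGAG were upstream of 3 (5.26%) and 0 of the 57 genes, against 9.46% and 4.83% of all. A match is a run of letters and not a measured site.

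The 57 genes took up a large part of each library, and less of it in aged cells. They held 15.4%, 16.2% and 15.3% of all counts in aged wild type, against 21.8%, 24.2% and 22.4% in young wild type. The msn2 deletion had 14.2%, 14.2% and 15.97% in aged cells, against 22.9%, 23.2% and 22.1% in young cells. The double deletion had 15.3%, 14.5% and 15.1% in aged cells, against 22.2%, 21.7% and 19.6% in young cells. Every aged library was below every young one. The ratio of these counts to those of the 81 large subunit genes was 1.11 ± 0.0078, 1.12 ± 0.029 and 1.14 ± 0.017 in aged wild type, msn2 and double deletion cells (SD, n = 3), against 1.15 ± 0.033, 1.25 ± 0.010 and 1.22 ± 0.027 in the young cells of the same strains. The aged and young ranges of that ratio overlapped in wild type and did not in either deletion strain.

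**Figure D1:**
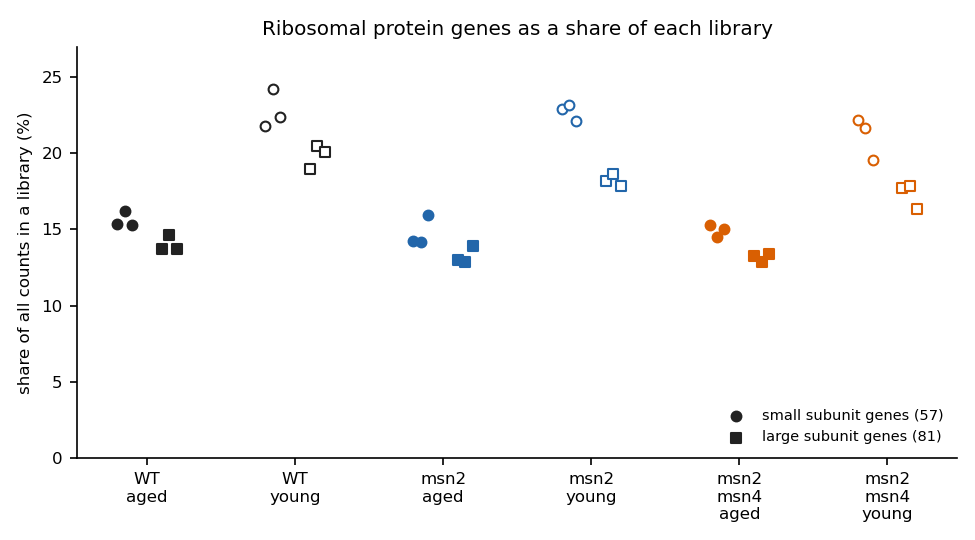
Share of all counts in a library (%, vertical axis from 0) held by the 57 small subunit genes (circles) and the 81 large subunit genes (squares), 3 libraries a group, aged filled and young open. Small subunit genes lay between 14.2% and 16.2% in the 9 aged libraries and between 19.6% and 24.2% in the 9 young libraries.

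Among the proteins, the RNA level summed over both copies differed widely, although a single molecule of each protein is needed per subunit. Replicates deviated along coding length, as given below, and the part of length in these differences between genes was not tested. RPS31, which encodes eS31 fused to ubiquitin, averaged 33761 ± 3597 CPM per kb in aged and 80404 ± 15468 in young wild type, the highest of the 33 proteins in both. RPS14, which encodes uS11 of the platform, averaged 1809 ± 67.4 and 2185 ± 267 CPM per kb, the lowest in both. Single genes were spread less widely in aged cells. The SD of log2 CPM per kb over the 57 genes was 1.26 to 1.45 in the 9 aged libraries and 1.58 to 1.90 in the 9 young ones, with no overlap. The ratio of the highest to the lowest gene was 68.9 to 120.5 in aged libraries and 179.9 to 283.2 in young ones.

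Copies also differed in how they shared the level. In young wild type the most unequal pairs were RPS7, with 94.5% ± 0.583 of its level per kb from the A copy (SD, n = 3), RPS9 with 10.1% ± 1.12, RPS22 with 86.1% ± 1.03 and RPS28 with 80.5% ± 3.88. The most even were RPS23 with 51.3% ± 0.881, RPS18 with 51.5% ± 0.697, RPS26 with 47.9% ± 5.54 and RPS1 with 45.9% ± 1.53. In aged wild type the same pairs stood at 91.7% ± 0.573, 11.2% ± 0.0632, 83.5% ± 0.0922, 69.2% ± 1.30, 52.6% ± 0.581, 49.5% ± 0.562, 46.6% ± 1.65 and 46.8% ± 0.388, in that order. The minor copy of the most unequal pairs was thus the A copy of RPS9, whose protein uS4 sits near the mRNA entry, and the B copy of the other pairs.

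The first comparison asked how the genes differ between aged and young wild type. In aged cells 51 of the 57 were lower and 0 were higher at an adjusted p under 0.05, while of all features tested 63.9% passed, 30.6% lower and 33.3% higher. The median log2 fold change was -0.71 over the 57 genes, 0.031 over all features and -0.81 over the large subunit genes, and 24 of the 57 were at least 2-fold lower. The 6 that did not pass were RPS0A (log2 -0.058 ± 0.11 SE, adjusted p = 0.659), RPS0B (log2 0.011 ± 0.077 SE, adjusted p = 0.908), RPS4B (log2 -0.12 ± 0.077 SE, adjusted p = 0.198), RPS9A (log2 -0.060 ± 0.072 SE, adjusted p = 0.475), RPS15 (log2 -0.14 ± 0.090 SE, adjusted p = 0.168) and ASC1 (log2 -0.18 ± 0.11 SE, adjusted p = 0.148). Scaled by library totals alone, all features had a median of 0.54, and 9 of the 57 genes were then higher and 28 lower. The share of all features that passed was not counted with library totals. Counts of genes under that scaling, here and below, therefore have no such share beside them.

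The lowest fold changes in aged wild type belonged to RPS29A, RPS30B and RPS20. RPS29A had 893, 1061 and 871 CPM in aged wild type, against 2380.2, 4295 and 3156 in young wild type (log2 -1.80 ± 0.22 SE, adjusted p = 1.54e-06). RPS30B had 978, 1122 and 889.6 CPM in aged wild type, against 2582, 3917 and 2878 in young wild type (log2 -1.65 ± 0.22 SE, adjusted p = 2.69e-06). The aged libraries lay far below the young ones for both, without overlap. RPS20 (YHL015W, chromosome VIII, 75412 to 75777), the single gene for uS10 of the subunit head, had 6581, 7808 and 6668 CPM in aged wild type, against 16455, 23421 and 20426 in young wild type (log2 -1.52 ± 0.16 SE, adjusted p = 2.53e-07). These libraries did not overlap either.

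The single-copy genes did not move alike in wild type. RPS31 (YLR167W, chromosome XII, 498947 to 499405) had 15092, 17312 and 14085 CPM in aged wild type, against 31634, 44979 and 34104 in young wild type (log2 -1.25 ± 0.15 SE, adjusted p = 8.28e-07). It was lower in every aged library than in any young one. RPS13, the gene for uS15, fell by 0.61 ± 0.087 SE on the log2 scale (adjusted p = 7.54e-06), and RPS2, the gene for uS5 near the mRNA entry, by 0.46 ± 0.085 (adjusted p = 0.000108). RPS12, the gene for eS12, fell by 0.46 ± 0.097 (adjusted p = 0.000381), and RPS3, the gene for uS3 at the mRNA entry, by 0.32 ± 0.087 (adjusted p = 0.00335). With library totals RPS2, RPS3 and RPS12 came out at 0.046, 0.18 and 0.040 instead, so their direction depended on the scaling. ASC1 (YMR116C, chromosome XIII, 499456 to 500688), the yeast RACK1 that sits on the head of the subunit as a signalling scaffold, had 1854, 1797 and 1969.5 CPM in aged wild type, against 2169.9, 2009.5 and 2172 in young wild type. RPS15, the gene for uS19, had 896, 958 and 958 CPM in aged wild type, against 981, 1086 and 1039.6 in young wild type. Neither passed, although in both genes every aged library lay below every young one. The intron of ASC1 holds the snoRNA gene SNR24 on the same strand, and how reads in that overlap were counted is not given in the sources used here.

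In the msn2 deletion 46 of the 57 genes were lower and 1 was higher in aged cells, while of all features 69.6% passed, 33% lower and 36.6% higher. The median log2 fold change was -0.84, beside 0.030 over all features and -0.72 over the large subunit genes, and 24 genes were at least 2-fold lower. The lowest were RPS30B, RPS27B and RPS22A. RPS27B (YHR021C, chromosome VIII, 147871 to 148669), which encodes eS27, had 1168, 1155 and 1528 CPM in aged msn2 deletion cells, against 3575, 4964 and 3627 in young ones (log2 -1.66 ± 0.20 SE, adjusted p = 5.95e-07). RPS22A (YJL190C, chromosome X, 74910 to 75302), which encodes uS8, had 4345, 4227 and 6043 CPM in aged msn2 deletion cells, against 15970.0, 15047 and 14233 in young ones (log2 -1.63 ± 0.17 SE, adjusted p = 1.02e-07). RPS30B reached log2 -1.70 ± 0.22 SE, adjusted p = 1.14e-06. In each of these the aged libraries lay below all young ones. RPS9A (YPL081W, chromosome XVI, 404950 to 406044), the minor copy for uS4, was the gene that was higher, with 233, 225 and 229.8 CPM in aged cells, against 187, 186 and 183 in young cells (log2 0.31 ± 0.072 SE, adjusted p = 0.000880). With library totals the median of all features moved to 0.62, and 17 of the 57 genes were then higher and 30 lower.

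In the double deletion 37 of the 57 genes were lower and 2 were higher in aged cells, while of all features 61.2% passed, 29.9% lower and 31.2% higher. The median log2 fold change was -0.53, beside 0.034 over all features and -0.56 over the large subunit genes, and 20 genes were at least 2-fold lower. RPS22A was lowest, with 4673, 4074 and 3810.3 CPM in aged double deletion cells, against 14526, 13135 and 10278 in young ones (log2 -1.59 ± 0.17 SE, adjusted p = 2.33e-07). RPS27B followed at log2 -1.56 ± 0.20 SE, adjusted p = 2.03e-06, and RPS16A (YMR143W, chromosome XIII, 551928 to 552903), which encodes uS9 with a tail that reaches the peptidyl site, at log2 -1.45 ± 0.16 SE, adjusted p = 3.71e-07. RPS9A was higher, with 234, 246 and 245 CPM in aged double deletion cells, against 205, 188 and 193 in young ones (log2 0.31 ± 0.073 SE, adjusted p = 0.00119). RPS24B (YIL069C, chromosome IX, 231553 to 232369), one copy for eS24, was also higher, with 664, 648 and 753 CPM in aged cells, against 541, 563 and 589 in young cells (log2 0.29 ± 0.085 SE, adjusted p = 0.00641). With library totals the median of all features moved to 0.46, and 19 of the 57 genes were then higher and 27 lower. The 3 aged libraries of the double deletion were several times shallower than the rest.

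Across the strains, whose age comparisons use separate libraries, 37 of the 57 genes were lower in all 3, as were 21% of all features tested. Of these, 20 were at least 2-fold lower in each strain, beside 2.53% of all features, among them RPS7A, both copies of RPS10, RPS16, RPS18, RPS22, RPS27 and RPS30, RPS20, RPS21A, RPS28A, RPS29A and RPS31. ASC1, RPS0A, RPS4B and RPS15 passed in none of the 3 strains. Single-copy genes in the deletion strains gave the following log2 fold changes, msn2 deletion first. RPS20 stood at -1.31 and -1.29 and RPS31 at -1.49 and -1.23, and all these values passed. RPS12 stood at -0.84 and -0.34, both of which passed, and at 0.094 in the double deletion with library totals. RPS2 stood at -0.26 and 0.007 and RPS3 at -0.33 and -0.071. The msn2 deletion values passed and the double deletion values did not, and with library totals the msn2 deletion values were 0.33 and 0.26. RPS13 stood at -0.18 and -0.029, RPS15 at 0.16 and 0.12, and ASC1 at -0.015 and -0.030, none of which passed.

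**Figure D2:**
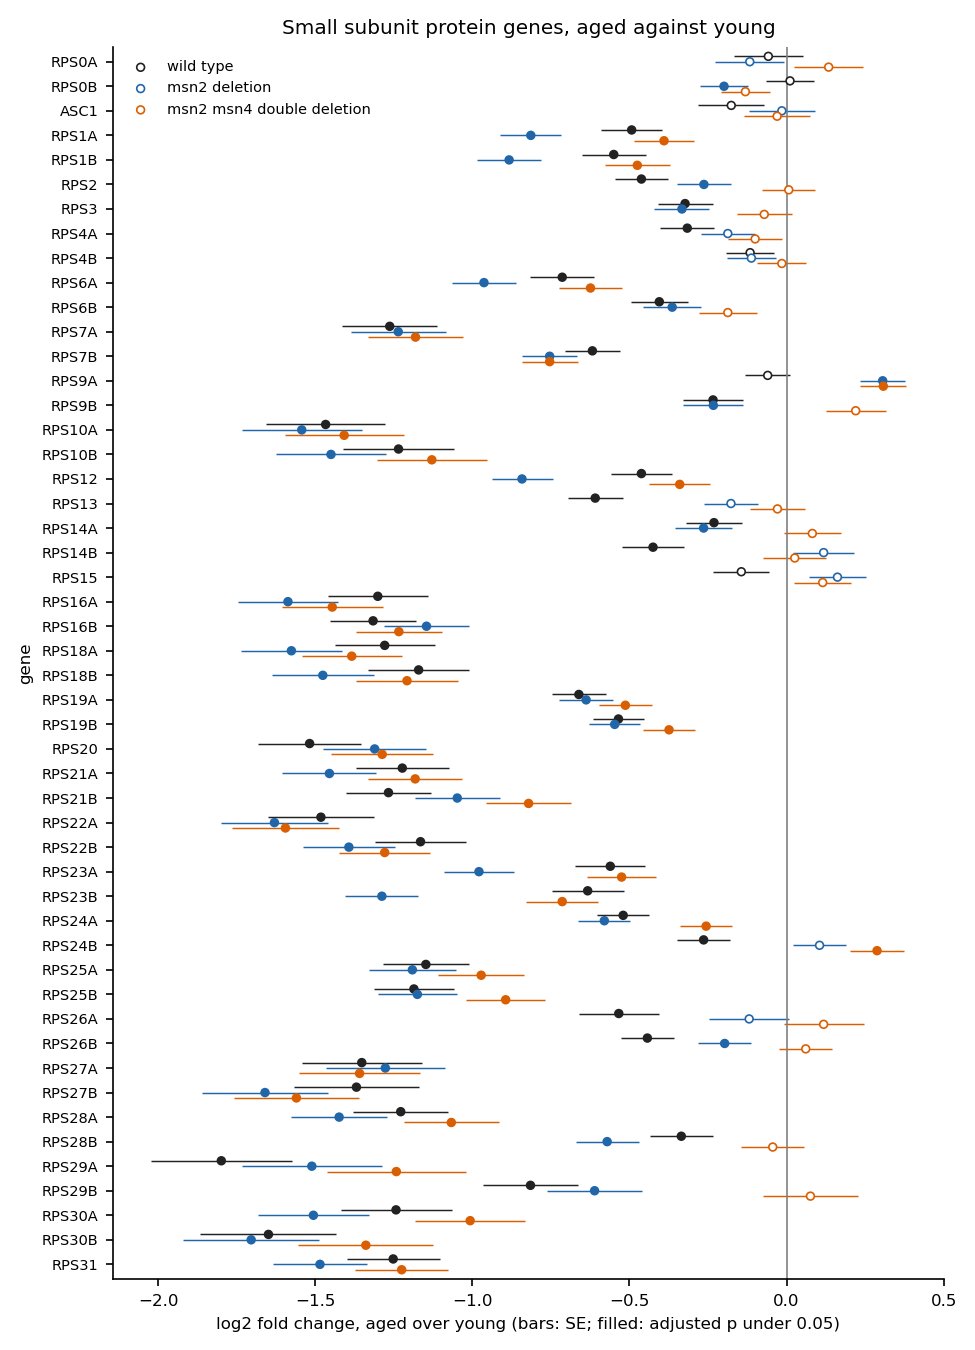
Log2 fold change of aged over young cells for 50 of the 57 genes in wild type (black), the msn2 deletion (blue) and the double deletion (orange), with bars of 1 SE from the edgeR fit and filled points at an adjusted p under 0.05. RPS29A in wild type lies lowest, at -1.80, and RPS9A in the double deletion highest, at 0.31.

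Genes with a higher level in young cells had the larger decreases. The level was taken from young libraries of a strain not in the comparison (the msn2 deletion for wild type, wild type for the others). Level and change thus share no library, but they are not kept apart. Between young wild type and either young deletion strain 0 of the 57 genes passed at 2-fold or more. A gene that is high in young cells of every strain thus enters both values. The level per kb also contains coding length, described next. Over the 57 genes the Pearson correlation of the log2 fold change with log2 CPM per kb was -0.81 in wild type, -0.89 in the msn2 deletion and -0.82 in the double deletion. Genes are not independent replicates, and all libraries share 1 scaling, so these are descriptions. In wild type the 19 genes with the highest level had a median log2 fold change of -1.28, the middle 19 one of -0.63 and the lowest 19 one of -0.32. The medians in that order were -1.49, -0.84 and -0.19 in the msn2 deletion and -1.24, -0.47 and 0.026 in the double deletion.

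Coding length moved with the change too. The correlation of the log2 fold change with log2 coding length was 0.59 in wild type, 0.50 in the msn2 deletion and 0.41 in the double deletion. Replicates of one group also deviated from their mean along length: the correlation of these deviations with log2 coding length ran from -0.73 to 0.77 over the 18 libraries and was at least 0.5 in size in 9 of them. The part of length in the age differences was not tested. Presence of an intron in the coding part separated the genes less with age, and not in the same direction in every strain. In aged wild type 32 of 37 genes with such an intron were lower (median log2 fold change -0.66), and 19 of 20 without one (median -0.77). The order was the reverse in the deletion strains. Medians with and without an intron were -0.96 and -0.83 in the aged msn2 deletion, and -0.62 and -0.49 in the aged double deletion. In young msn2 deletion against young wild-type cells 9 of 37 with an intron were lower (median -0.12), and 11 of 20 without one (median -0.31). For the young double deletion these were 14 of 37 (median -0.26) and 15 of 20 (median -0.43). Of all features 15.5% and 19.9% were lower in these young comparisons.

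**Figure D3:**
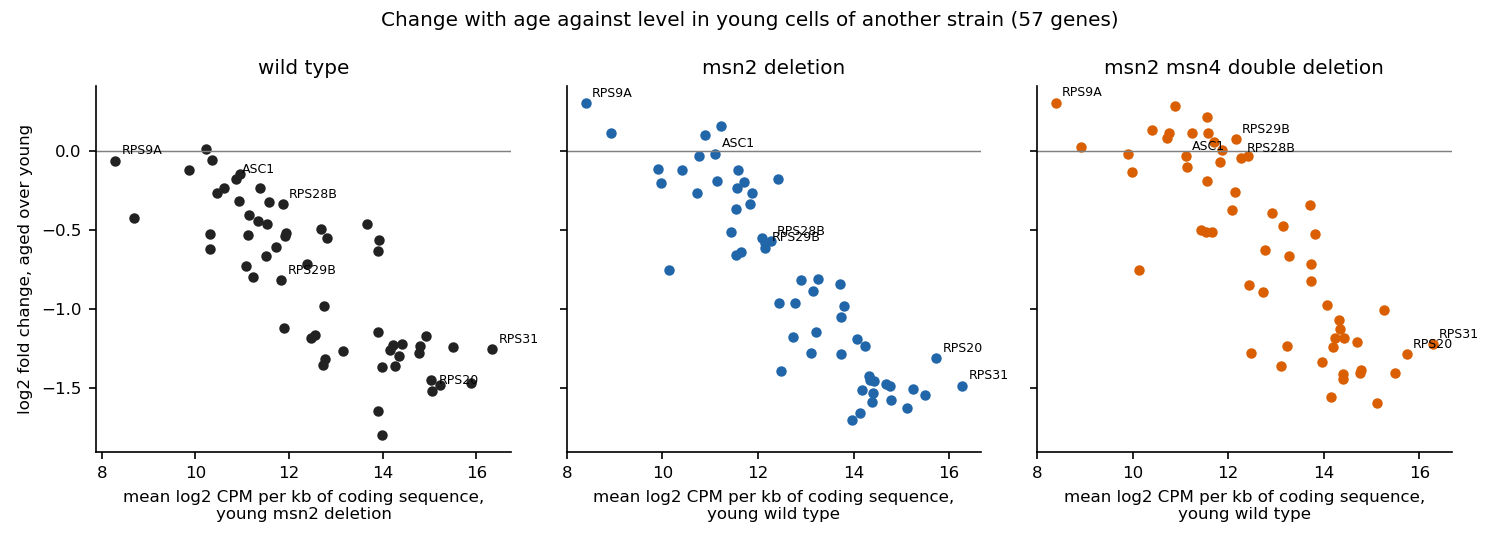
Log2 fold change of aged over young cells (vertical axis) against the mean log2 CPM per kb in young cells of another strain (horizontal axis), for the 57 genes in each of the 3 strains. RPS31 lies farthest right and RPS9A farthest left, and the highest 19 genes have medians of -1.28, -1.49 and -1.24.

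The A and B copies of one protein were compared through their ratio, which does not depend on how libraries are scaled. In aged wild type the ratio of 12 of the 24 pairs differed from young wild type at an adjusted p under 0.05 in limma, 4 toward A and 8 toward B, while of the 61 A and B pairs tested 57.4% passed, 26.2% toward A and 31.1% toward B. For the msn2 deletion 15 pairs passed, 6 toward A and 9 toward B, beside 65.6% of the 61 (29.5% and 36.1%). For the double deletion 17 pairs passed, 6 toward A and 11 toward B, beside 73.8% of the 61 (29.5% and 44.3%). The share of small subunit pairs that passed was thus a little under that of all pairs in each strain. Apart from COX5 and NHP6, the other pairs among the 61 are all pairs of large subunit genes. Shares of the 61, here and below, are thus no reference for the whole genome. In all 3 strains RPS6, RPS7, RPS22, RPS24, RPS28 and RPS29 were among the pairs that moved toward B, and RPS30 among those that moved toward A. The RPS30 call in the msn2 deletion (log2 0.20 ± 0.079 SE, adjusted p = 0.0377) was lost with only the libraries compared, with the replicate block and after thinning (adjusted p = 0.0695, 0.0543 and 0.065 in limma). It was also lost without young msn2 deletion replicates 2 and 3 or aged msn2 deletion replicates 1 and 2 (adjusted p = 0.2, 0.0611, 0.0676 and 0.135 in limma). RPS1, RPS25 and RPS26 were among those that passed in none.

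RPS29 and RPS28 had the largest changes of ratio. RPS29A held 69.6, 68.5 and 64.5% of the pair's level per kb in aged wild type, against 80.4, 82.4 and 78.0% in young wild type (log2 -0.97 ± 0.14 SE, adjusted p = 2.80e-05). RPS29A in the msn2 deletion held 67.6, 69.0 and 73.8% in aged cells, against 82.0, 82.2 and 80.8% in young cells (log2 -0.92 ± 0.14 SE, adjusted p = 2.93e-05). The share in the double deletion was 65.9, 63.0 and 63.8% in aged cells, against 83.2, 82.9 and 77.6% in young cells (log2 -1.28 ± 0.14 SE, adjusted p = 1.09e-06). All aged libraries lay below all young ones, with RPS29A still the major copy. The copies themselves fell unequally: the log2 fold changes of RPS29A were -1.80, -1.51 and -1.24 in wild type, the msn2 deletion and the double deletion, and those of RPS29B -0.81, -0.61 and 0.076, of which the last did not pass.

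RPS28A held 69.5, 70.2 and 67.7% of its pair's level per kb in aged wild type, against 77.0, 84.7 and 79.8% in young wild type (log2 -0.90 ± 0.16 SE, adjusted p = 0.000267). Cells of the msn2 deletion had 72.6, 73.0 and 76.2% in aged cells, against 82.8, 85.3 and 82.7% in young cells (log2 -0.85 ± 0.16 SE, adjusted p = 0.000241). Those of the double deletion had 71.4, 68.7 and 66.7% in aged cells, against 83.9, 82.5 and 77.7% in young cells (log2 -0.99 ± 0.16 SE, adjusted p = 6.59e-05). Again no aged library reached the lowest young one. RPS28B, whose mRNA is known to be controlled by its own protein through decapping, had log2 fold changes of -0.34, -0.57 and -0.044 in the 3 strains, the last of which did not pass, beside -1.23, -1.42 and -1.07 for RPS28A, which all passed.

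RPS7, the pair for eS7, changed by log2 -0.63 ± 0.11 SE, adjusted p = 0.000229 in wild type, and its A copy held 92.0, 92.1 and 91.1% in aged cells, against 94.3, 95.2 and 94.0% in young cells. Its minor B copy thus took a larger part in every aged library. RPS24 changed most in the msn2 deletion (log2 -0.69 ± 0.052 SE, adjusted p = 1.78e-08), where RPS24A held 63.8, 62.6 and 63.6% in aged cells, against 74.4, 73.5 and 72.7% in young cells. The RPS24 ratio changed by log2 -0.55 ± 0.052 SE, adjusted p = 1.89e-07 in the double deletion. RPS24 is one of the pairs with a shared stretch of read length, as is RPS6.

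Toward A, RPS30 changed by log2 0.41 ± 0.079 SE, adjusted p = 0.000347 in wild type, where RPS30A held 76.3, 75.6 and 77.2% in aged cells, against 71.3, 70.5 and 70.8% in young cells. RPS14 was the pair that passed in opposite directions, at log2 0.19 in wild type and -0.38 in the msn2 deletion. The wild-type call was lost without young replicate 2, without aged replicate 3 and after thinning (adjusted p = 0.0726, 0.11 and 0.068 in limma). RPS14B is known for splicing that is repressed by its own protein.

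**Figure D4:**
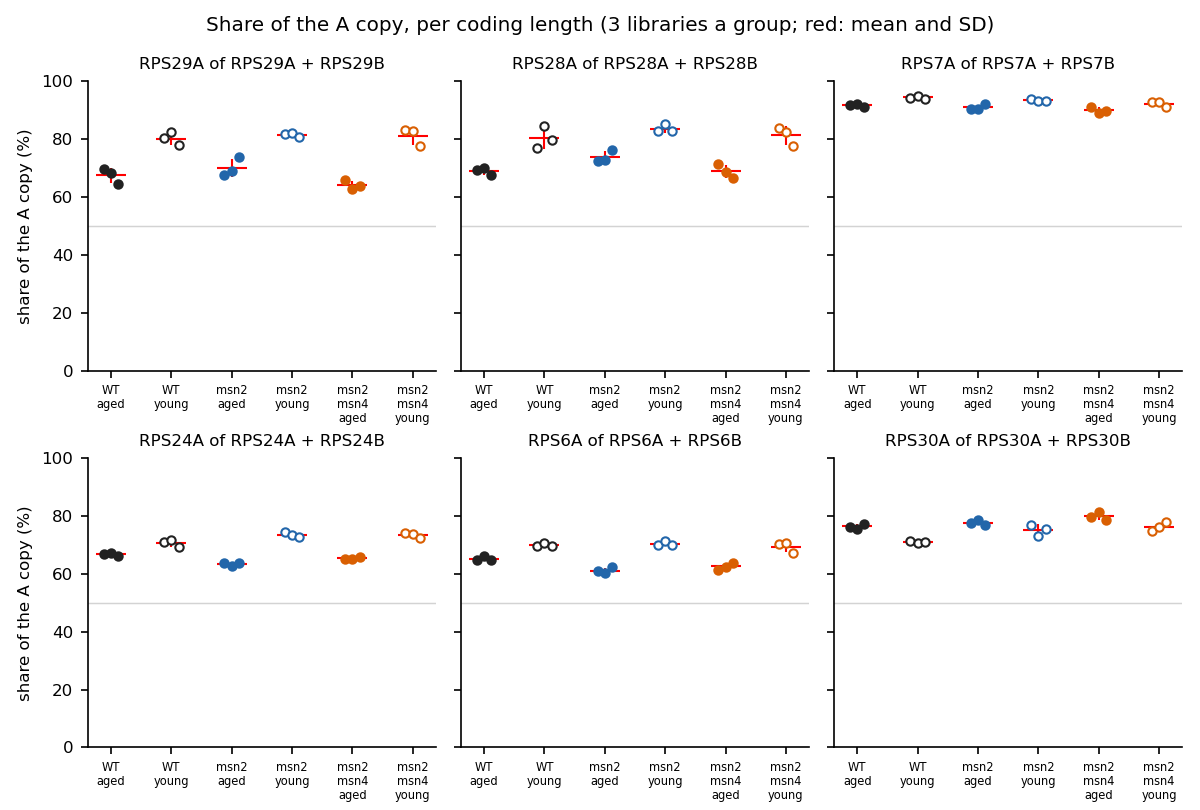
Share of the A copy in its pair's level per kb (%, vertical axis from 0 to 100) in each library, 3 a group, aged filled and left of young open points, with the mean and SD in red, for the pairs RPS29, RPS28, RPS7, RPS24, RPS6 and RPS30. The aged points of RPS29 lie at or below 73.8% and the young ones at or above 77.6%.

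The next comparisons asked what the deletions changed in young cells, and both use the same young wild-type libraries. In the msn2 deletion 20 of the 57 genes were lower and 1 was higher, while of all features 30.5% passed, 15.5% lower and 15% higher. The median log2 fold change was -0.19, beside -0.012 over all features and -0.23 over the large subunit genes, and none of the 57 reached 2-fold. With library totals 16 were lower and 4 higher. RPS13 (YDR064W, chromosome IV, 579458 to 580452) had 1514, 1522 and 1582 CPM in young msn2 deletion cells, against 2269, 2472 and 2767 in young wild type (log2 -0.70 ± 0.087 SE, adjusted p = 6.64e-06). RPS20 had 12193, 14939.8 and 10678 CPM in young msn2 deletion cells, against 16455, 23421 and 20426 in young wild type (log2 -0.67 ± 0.16 SE, adjusted p = 0.00382). Deletion and wild-type libraries did not overlap for RPS13 or RPS20. RPS21B (YJL136C, chromosome X, 156550 to 157273), one copy for eS21, reached log2 -0.57 ± 0.13 SE, adjusted p = 0.00332. RPS0B (YLR048W, chromosome XII, 242232 to 243349), one copy for uS2, was the gene that was higher, with 913, 856 and 958 CPM in young msn2 deletion cells, against 798, 748 and 749 in young wild type (log2 0.25 ± 0.077 SE, adjusted p = 0.0196). Its adjusted p in edgeR was 0.0782 with only the libraries compared, which left 0 genes higher and 15 lower. It was 0.0524 and 0.0729 without young wild-type replicates 2 and 3, and 0.0574 and 0.0942 without young msn2 deletion replicates 1 and 3.

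In the young double deletion 29 of the 57 genes were lower and 1, again RPS0B (log2 0.33 ± 0.077 SE, adjusted p = 0.00252), was higher, while of all features 37.7% passed, 19.9% lower and 17.9% higher. The median log2 fold change was -0.31, beside -0.0080 over all features and -0.35 over the large subunit genes. When the fit held only the libraries of this comparison 13 genes passed, and with library totals 18. RPS21B had 2222, 2158 and 1598 CPM in young double deletion cells, against 3147, 3753 and 3928 in young wild type (log2 -0.86 ± 0.13 SE, adjusted p = 7.03e-05). RPS20 had 12319, 12741 and 9073 CPM in young double deletion cells, against 16455, 23421 and 20426 in young wild type (log2 -0.82 ± 0.16 SE, adjusted p = 0.000577). RPS29B had 545, 446 and 399 CPM in young double deletion cells, against 579, 918 and 889 in young wild type (log2 -0.78 ± 0.15 SE, adjusted p = 0.000534). No library of the double deletion reached the lowest of wild type in these 3 genes.

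A to B ratios were also compared between young deletion and young wild-type cells. The share of small subunit pairs that passed, 37.5% in each deletion strain, lay under that of all pairs. In the msn2 deletion 9 of 24 pairs passed, 4 toward A and 5 toward B, beside 44.3% of the 61 pairs (24.6% toward A and 19.7% toward B), and in the double deletion 9 passed, 5 toward A and 4 toward B, beside 42.6% (26.2% and 16.4%). The largest was RPS21, where the B copy passed as lower in both strains and the A copy did not pass: the A share of its level per kb was 71.9, 68.3 and 70.5% in young msn2 deletion cells and 71.6, 70.7 and 70.0% in young double deletion cells, against 61.2, 65.4 and 58.4% in young wild type (log2 0.55 ± 0.093 SE, adjusted p = 0.000252, and log2 0.58 ± 0.093 SE, adjusted p = 0.000366). All deletion libraries had a higher A share than any wild-type library. RPS16 changed by log2 0.41 ± 0.072 SE, adjusted p = 0.000331 in the msn2 deletion. RPS7 changed by log2 -0.51 ± 0.11 SE, adjusted p = 0.00308 in the double deletion. RPS30 changed by log2 0.31 and 0.39 in the msn2 and double deletions, both passing.

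In aged cells the deletion strains were set against the 3 aged wild-type libraries. In the msn2 deletion 14 of the 57 genes were lower and 2 higher, while of all features 30% passed, 16% lower and 13.9% higher, and the median log2 fold change was -0.17, beside 0.019 over all features. With library totals 7 were lower and 3 higher. The number of genes that passed was 9 or 10 in place of 16 without aged wild-type replicate 1 (9), aged wild-type replicate 2 (10) or aged msn2 deletion replicate 1 (9). RPS1B (YML063W, chromosome XIII, 146482 to 147249), one copy for eS1 of the platform, had 2913, 3131 and 2988 CPM in aged msn2 deletion cells, against 4688, 4908 and 4702 in aged wild type (log2 -0.66 ± 0.10 SE, adjusted p = 7.15e-05). RPS28B had 519, 499 and 512 CPM in aged msn2 deletion cells, against 769, 852 and 781 in aged wild type (log2 -0.65 ± 0.10 SE, adjusted p = 6.62e-05). RPS6A (YPL090C, chromosome XVI, 377291 to 378395), one copy for eS6, the protein phosphorylated downstream of TORC1, reached log2 -0.62 ± 0.10 SE, adjusted p = 0.000113. All aged msn2 deletion libraries were below all aged wild-type libraries in these 3 genes. The genes that were higher were both minor copies, RPS14B (log2 0.29 ± 0.098 SE, adjusted p = 0.0275) and RPS9A (log2 0.26 ± 0.072 SE, adjusted p = 0.0100).

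In the aged double deletion 10 of the 57 genes were lower and 5 higher, while of all features 36.3% passed, 19.7% lower and 16.6% higher, and the median log2 fold change was -0.10, beside -0.0070 over all features. The number that passed was 15, and it was 7 without aged wild-type replicate 1, 4 without aged wild-type replicate 2, 9 without aged double deletion replicate 1 and 6 without aged double deletion replicate 2. RPS27B had 1217, 899.7 and 1223 CPM in aged double deletion cells, against 1754, 1921 and 1618 in aged wild type (log2 -0.66 ± 0.20 SE, adjusted p = 0.0117). RPS27A (YKL156W, chromosome XI, 158613 to 159212) had 606, 449 and 656 CPM in aged double deletion cells, against 841, 942 and 824 in aged wild type (log2 -0.61 ± 0.19 SE, adjusted p = 0.0158). Both copies for eS27 were thus lower, and RPS20 reached log2 -0.59 ± 0.16 SE, adjusted p = 0.00675. RPS0A (YGR214W, chromosome VII, 920575 to 921788), with 1219, 1160.2 and 1459 CPM in aged double deletion cells, against 1023, 922 and 1048 in aged wild type, was highest (log2 0.36 ± 0.11 SE, adjusted p = 0.0146). RPS9A (log2 0.33 ± 0.073 SE, adjusted p = 0.00122) and RPS9B (log2 0.27 ± 0.096 SE, adjusted p = 0.0331), both copies for uS4, were higher as well.

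Of the 24 pairs, 8 passed in aged msn2 deletion cells, 3 toward A and 5 toward B, beside 34.4% of the 61 pairs (14.8% toward A and 19.7% toward B), and 6 in aged double deletion cells, 2 toward A and 4 toward B, beside 36.1% (19.7% and 16.4%). With only the libraries compared, 12 passed in the msn2 deletion, 7 toward A and 5 toward B. RPS9 changed by log2 0.44 ± 0.094 SE, adjusted p = 0.00744 and RPS14 by log2 -0.44 ± 0.068 SE, adjusted p = 0.000513 in the msn2 deletion, with RPS6 at log2 -0.26. In the double deletion RPS30 stood at log2 0.30 and RPS18 at -0.29, both passing.

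**Figure D5:**
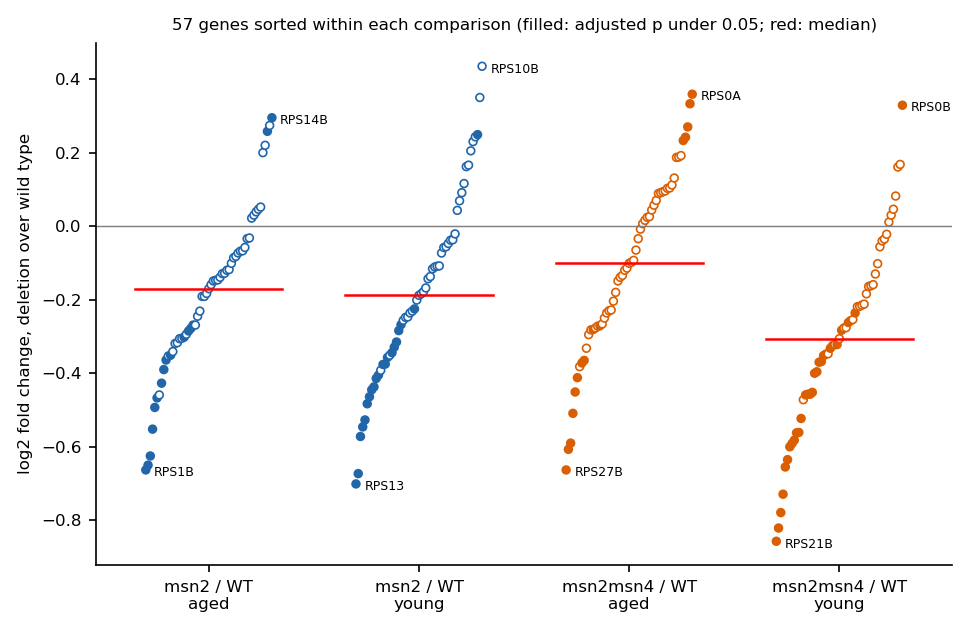
Log2 fold change of deletion over wild type for the 57 genes, sorted within each comparison along the horizontal axis, with medians in red and filled points at an adjusted p under 0.05. Most points lie below 0, with medians of -0.17 and -0.19 for the msn2 deletion (aged and young) and -0.10 and -0.31 for the double deletion.

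Whether the difference between aged and young cells itself differed between strains was tested as an interaction. For the msn2 deletion against wild type 6 of the 57 genes passed, 5 with a positive and 1 with a negative difference, beside 14.8% of all features (7.54% positive and 7.23% negative). For the double deletion against wild type 10 passed, all positive, beside 16.2% of all features (7.17% positive and 8.99% negative), and with library totals 5 did. The median difference was -0.013 in the msn2 deletion and 0.18 in the double deletion, where that of the large subunit genes was 0.23 and that of all features -0.017. Without aged msn2 deletion replicate 1 the msn2 count was 3, and it was 3 after thinning all libraries to the smallest total, and 11 with DESeq2, of which 5 were positive and 6 negative, so the balance of directions depended on the tool. A positive difference means that the gene fell less, or rose more, with age in the deletion strain than in wild type.

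RPS29B had the largest positive difference in the double deletion (log2 0.89 ± 0.21 SE, adjusted p = 0.00717). It had 499, 472 and 494 CPM in aged double deletion cells, against 545, 446 and 399 in young ones. It had 389.7, 488 and 479 CPM in aged wild type, against 579, 918 and 889 in young wild type. Young double deletion cells were thus already near the aged level, and aged cells of both strains were close. RPS26A (YGL189C, chromosome VII, 148229 to 148588), one copy for eS26 at the mRNA exit, followed at log2 0.65 ± 0.18 SE, adjusted p = 0.0172, with log2 fold changes with age of 0.12 in the double deletion and -0.53 in wild type.

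In the msn2 deletion RPS14B (YJL191W, chromosome X, 73787 to 74611) differed by log2 0.54 ± 0.14 SE, adjusted p = 0.0126 and RPS13 by log2 0.43 ± 0.12 SE, adjusted p = 0.0230. RPS13 had 1385, 1349 and 1351 CPM in aged msn2 deletion cells, against 1514, 1522 and 1582 in young ones, and 1671, 1638 and 1612 CPM in aged wild type, against 2269, 2472 and 2767 in young wild type. Its wild-type decrease thus had no counterpart that passed in the msn2 deletion, and the young level was lower there. RPS23B (YPR132W, chromosome XVI, 794965 to 795767), one copy for uS12 of the decoding site, had a negative difference (log2 -0.65 ± 0.16 SE, adjusted p = 0.0104). RPS23B had 2736, 2524 and 2952 CPM in aged msn2 deletion cells, against 7283, 5792 and 6975 in young ones, and 3676, 4253 and 3626 CPM in aged wild type, against 6325, 6304 and 5294 in young wild type. It fell in both strains, and further in the msn2 deletion.

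For the ratios, 8 of 24 pairs differed in their age change between the msn2 deletion and wild type, 3 toward A and 5 toward B. Of the 61 pairs 19.7% did (6.56% toward A and 13.1% toward B). Of the 37 other pairs, which apart from COX5 and NHP6 are of large subunit genes, 10.8% did. RPS14 differed by log2 -0.57 ± 0.096 SE, adjusted p = 0.000571, RPS24 by log2 -0.43 ± 0.073 SE, adjusted p = 0.000571, RPS16 by log2 -0.47 ± 0.10 SE, adjusted p = 0.00421 and RPS21 by log2 -0.47 ± 0.13 SE, adjusted p = 0.0192. The A share of RPS14 was 74.6, 75.6 and 73.3% in aged msn2 deletion cells, against 78.4, 78.0 and 80.8% in young ones, and 79.3, 79.5 and 80.7% in aged wild type, against 78.0, 77.1 and 77.8% in young wild type. The share was lower in aged than in young cells in the deletion and higher in wild type. The count was 5 without young wild-type replicate 3 or aged wild-type replicate 2, and 5 of the remaining 20 pairs when those with a shared stretch of read length were left out. Between the double deletion and wild type 2 of 24 pairs passed, beside 14.8% of the 61 (4.92% toward A and 9.84% toward B), and RPS24 was one of them (log2 -0.29 ± 0.073 SE, adjusted p = 0.0162). The count was 4 without young wild-type replicate 2, young double deletion replicate 3 or aged double deletion replicate 2, and 0 after thinning.

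Genes that carry the promoter words were set beside those without. In aged wild type 11 of 13 genes with AGGGG were lower (median log2 fold change -0.81), and 40 of 44 without it (median -0.69). In young msn2 deletion cells 5 of 13 genes with AGGGG were lower (median -0.20), and 15 of 44 without it (median -0.19). With a Rap1 word 19 of 21 were lower in aged wild type (median -0.98), and 32 of 36 without one (median -0.56). With the Abf1 word 12 of 12 were lower in aged wild type (median -0.57), and 39 of 45 without it (median -0.73). In the aged msn2 deletion these were 8 of 12 (median -0.56) and 38 of 45 (median -0.88). In the aged double deletion they were 6 of 12 (median -0.24) and 31 of 45 (median -0.62). Of all features 30.6%, 33% and 29.9% were lower with age in wild type, the msn2 deletion and the double deletion. In young msn2 deletion cells 15.5% of all features were lower. The ranges of genes with and without each word overlapped.

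Other genes of the same pathway are set beside the share of all features that passed in aged cells, which was 33.3% higher and 30.6% lower in wild type, 36.6% and 33% in the msn2 deletion, and 31.2% and 29.9% in the double deletion. Of 18 regulators, 7 were higher and 2 lower in aged wild type, 10 and 1 in the msn2 deletion, and 8 and 3 in the double deletion. YAK1, a kinase that represses ribosomal protein genes, reached log2 1.05 ± 0.10 SE in wild type, 0.65 ± 0.10 in the msn2 deletion and 0.27 ± 0.12, which did not pass, in the double deletion. TOD6, a repressor of ribosome biogenesis genes, reached 0.28 ± 0.10, 1.17 ± 0.10 and 1.43 ± 0.11 in that order, and ABF1, which encodes the factor of the Abf1 word, -0.84 ± 0.073, -0.72 ± 0.073 and -0.51 ± 0.075, all passing. IFH1, the coactivator of ribosomal protein genes, stood at -0.064 ± 0.071, which did not pass, and then 0.39 ± 0.071 and 0.41 ± 0.072, which did.

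Assembly factors of the small subunit were read against the same shares of all features. Of 18, 8 were higher and 3 lower in aged wild type, 12 and 2 in the msn2 deletion, and 15 and 1 in the double deletion, with medians of 0.17, 0.50 and 0.59 beside 0.031, 0.030 and 0.034 over all features. RIO1, a kinase of late assembly, reached log2 0.56 ± 0.092 SE, 0.85 ± 0.092 and 0.77 ± 0.096 in wild type, the msn2 deletion and the double deletion, and NOB1, the nuclease that makes the end of the small subunit RNA, 0.31 ± 0.094, 0.66 ± 0.094 and 0.77 ± 0.096. SLX9 was lower in all 3 strains, at -1.01 ± 0.12, -0.56 ± 0.12 and -0.38 ± 0.12. Counts over these lists hold for TMM scaling and were not recomputed with library totals, under which all features shift upward as given above. Of 5 chaperones of single small subunit proteins, 0 were higher and 1 lower in aged wild type, 2 and 2 in the msn2 deletion, and 3 and 0 in the double deletion.

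Of 20 tested factors that bind the small subunit at translation start, 4 were higher and 7 lower in aged wild type, 6 and 9 in the msn2 deletion, and 5 and 6 in the double deletion, where the shares of all features are those just given. SUI1, which encodes eIF1, stood at log2 -0.95 ± 0.19 SE, -0.98 ± 0.19 and -1.13 ± 0.19, and CDC33, the cap-binding protein, at -0.85 ± 0.14, -0.89 ± 0.14 and -0.77 ± 0.14. The ubiquitin genes parted. UBI4, the stress-induced polyubiquitin gene, averaged 621 ± 15.5 CPM in aged and 304 ± 12.1 in young wild type (SD, n = 3), log2 1.03 ± 0.067 SE, whereas RPS31, RPL40A and RPL40B, in which ubiquitin is fused to a ribosomal protein, reached -1.25 ± 0.15, -1.40 ± 0.16 and -1.35 ± 0.14. In the msn2 and double deletions UBI4 stood at 1.62 ± 0.068 and 1.48 ± 0.068.

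Markers of daughter cells were also present and moved with some of the groups. The 12 markers summed to 1563 to 1742 CPM in aged and 1345 to 1411 in young wild type, 1646 to 1809 in aged and 1782 to 1997 in young msn2 deletion cells, and 2151 to 2509 in aged and 1984 to 2322 in young double deletion cells. In aged wild type 7 of the 12 were higher and 1 lower than in young wild type. With age 2 were higher and 4 lower in the msn2 deletion, and 4 higher and 2 lower in the double deletion. In young msn2 and double deletion cells 9 and 11 were higher than in young wild type and 0 lower. Of all features 33.3% were higher and 30.6% lower in aged wild type. The shares were 36.6% and 33% with age in the msn2 deletion, and 31.2% and 29.9% in the double deletion. In young msn2 and double deletion cells 15% and 17.9% of all features were higher. Their part in the differences described was not tested.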

How the data were processed

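Polyadenylated RNA was sequenced as directional paired reads, per the labels' protocols. Per the submitters' processing notes, the tools were STAR 2.7.6a, Subread 1.6.2 with its featureCounts, cutadapt 2.6 and bcl2fastq, on build R64 (sacCer3); options for reads that match several genes are not given in the sources used here. The authors deposited one table of estimated counts per feature (54.6% of values above 0 lie more than 0.005 from a whole number, and 71.9% of the values of the 57 genes), so fractions of reads were counted and paralogs may share them. The 57 genes and all gene lists were chosen with earlier results of these data known.

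Counts were rounded, filtered with filterByExpr, scaled with TMM and tested with edgeR 4.0.16 (quasi-likelihood, R 4.3.3) in one fit of all 18 libraries with 6 group means, and Benjamini-Hochberg adjustment over 6833 features at 0.05. Ratios of A to B copies, log2 of (A + 0.5) over (B + 0.5), were tested with limma 3.58.1 over all 61 pairs of that naming, with adjustment over the 61. SE of a fold change is its size divided by the square root of F. Genes named in the text are the 3 highest and 3 lowest that passed in each comparison, the single-copy genes with age, the 4 pairs with the largest change that passed in each comparison, and the 4 most unequal and 4 most even pairs in young wild type; other names were chosen after their values were seen, and some genes that this rule names are not reported here. Scripts were tested on simulated data. Alternatives were DESeq2 1.42.0, library totals, other filters and feature sets for scaling, scaling without ribosomal protein genes, a pseudocount of 5, only the libraries compared, a replicate block, each library left out, pairs with a shared stretch left out and, chosen after seeing the data, thinning to the smallest library total. Replicates of a group differed by more than sampling noise, and all were kept. Motif words were chosen with their counts known.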

Additional observations from a re-analysis of the deposited data

Results flagged for a closer look

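The effect of age differed between strains, by the interaction test in edgeR or, for ratios, limma, for a set of genes and pairs. Between the msn2 deletion and wild type this held for 6 of the 57 genes (10.5%, beside 14.8% of all features) and 8 of the 24 pairs (33.3%, beside 19.7% of the 61 pairs). Between the double deletion and wild type it held for 10 genes (17.5%, beside 16.2%) and 2 pairs (8.33%, beside 14.8%). The shares of genes were thus near or under those of all features. Both comparisons share the wild-type libraries.

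Against wild type, the age effect (log2) in the msn2 deletion differed by 0.54 for RPS14B, 0.43 for RPS13 and -0.65 for RPS23B. In the double deletion it differed by 0.89 for RPS29B and 0.65 for RPS26A. For the ratio of A to B copies the difference was -0.57 for RPS14, -0.47 for RPS16, -0.47 for RPS21 and -0.43 for RPS24 in the msn2 deletion, and -0.29 for RPS24 in the double deletion. RPS13, RPS29B and RPS21B were already lower in young cells of the deletion strain in which each is named here or above. Against young wild type, RPS13 stood at log2 -0.70 and RPS21B at -0.57 in the msn2 deletion, and RPS29B at -0.78 in the double deletion. The young difference is a term of the difference in age effect, so they are not separate results.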

How the results depend on the processing

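Of 264 recomputed counts of genes or pairs 242 stayed within 1.5 times the reported count, and of 1562 recomputed single values 1496 kept their direction and their side of the threshold. The counts add both directions, so a change of direction is not seen in them. With library totals 0 higher and 51 lower with age in wild type became 9 and 28. In the msn2 deletion 1 and 46 became 17 and 30, and in the double deletion 2 and 37 became 19 and 27. Library totals in place of TMM gave the 6 reversed values: in wild type RPS2 0.046, RPS3 0.18 and RPS12 0.040, in the msn2 deletion RPS2 0.33 and RPS3 0.26, and in the double deletion RPS12 0.094. Single values cover only medians and the genes and pairs named by rule, so reversals among the rest of the 57 genes are not in this number. Under library totals the median of the 57 genes with age was -0.21, -0.26 and -0.091 in wild type, the msn2 deletion and the double deletion, and the genes that passed numbered 18 in the young double deletion, 10 in the aged msn2 deletion and 5 for the age effect of the double deletion. With only the libraries compared, 13 passed in the young double deletion. For the msn2 age effect DESeq2 called 11 genes and thinning left 3, and 5 pairs passed without those that share a stretch of read length. For the double deletion age effect 1 pair passed without those pairs and 0 after thinning with limma, where 5 had an unadjusted p under 0.05 before thinning. The cause was not tested. Leaving out 1 library gave 9 to 16 genes for the aged msn2 deletion, 4 to 12 for the aged double deletion and 3 to 7 for the msn2 age effect, and 5 to 8 pairs for the msn2 and 2 to 4 pairs for the double deletion age effect.

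Replicate numbers did not meet the rule set for pairing the libraries (in no comparison were all 3 correlations over 0.1), which cannot show that pairing was absent. The correlations were 0.105, 0.290 and 0.086 for aged against young wild type. They were 0.125, 0.283 and 0.034 for the young msn2 deletion against young wild type. Every other comparison held a negative one. With the replicate block 51, 47 and 39 genes passed with age in wild type, the msn2 deletion and the double deletion, and 12, 14 and 17 pairs; in the aged double deletion 13 genes and 4 pairs passed. The shallow aged libraries of the double deletion (lowest 4078400 counts) limit its comparisons, 3 libraries a group limit all of them, and reads shared by near-identical copies limit the ratios of pairs such as RPS4, RPS6 and RPS24.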
